A study of Mus musculus with 9 samples.

Results

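The change in the transcriptome of the mouse testis between 8 and 16 days after birth is described here across 19935 genes, from 6 of the 9 arrays of the series. All 3 arrays labelled 16 days were compared with all 3 labelled 8 days, using array rows that carry exactly 1 gene symbol. The 3 arrays of 24 days entered the test of this comparison only through the estimate of the spread. They also entered the median of each row, and their values or the next interval are given where 24 days is named. Each array held total RNA of whole testis from male Swiss albino mice of an inbred line, at an age of 8, 16 or 24 days and with no treatment, and the design text calls the 3 arrays of an age biological replicates. The labels name no genotype, transgene or agent, and no factor other than age. The design text names this comparison as the first interval of a series on the first wave of spermatogenesis. The deposited values were read as log2 differences from the median of the 9 arrays in the same row, a base inferred from the values, since the labels do not name it. They compare ages for 1 gene and hold no level that could be set against another gene. Because an age in the middle often supplies the median, many values at 16 days lie at or near 0.

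In the first wave of spermatogenesis, germ cells move forward together, so that the youngest testis holds spermatogonia and the somatic cells that support them, and spermatocytes are added as the animal grows. Retinoic acid triggers entry into meiosis. Spermatocytes then copy their DNA, cut it with the SPO11 complex, repair the cuts on the homologous chromosome with recombinases such as DMC1, tie homologs together with the synaptonemal complex, and silence the X and Y chromosomes in the sex body during pachytene. In whole tissue, fewer cells of a type and less RNA per cell cannot be told apart, and this holds for each change below.

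Markers of testis cells were in place. Of 19 pachytene spermatocyte markers, 16 rose and 0 fell, and their mean value lay between -2.63 and -2.54 in the arrays of 8 days and between -0.19 and 0.44 in those of 16 days. Of 14 spermatid markers, 2 rose and 0 fell, and these rises (14.3%) were near the 10.4% of all genes. Of 18 spermatogonial markers 13 fell and 1 rose, of 18 Sertoli cell markers 10 fell, and of 9 Leydig cell markers 7 fell. These falls were 72.2%, 55.6% and 77.8% of the lists, against 14.3% of all genes. Of 35 markers of erythroid cells, skeletal muscle, epididymal and rete epithelium and mast cells, 0 passed limma's test in either direction, and 2 had an unadjusted p under 0.05. These lists were grouped because none of their genes was called, so the 0 follows from that choice. Only 4 of 12 listed erythroid markers were measured. Of 9 adipocyte markers 1 rose and 1 fell, and of 9 markers of Schwann cells and neurons 0 rose and 1 fell. The 1027 olfactory receptor genes, most of which should have little signal in testis, stood higher in 1 array of each age. Their median reached 0.17, at 8 days on replicate 1 and at 16 days on replicate 2, and ran from -0.02 to 0.03 on the remaining 4. Replicate numbers are those of the array titles, and the array of each age with no number in its title is called replicate 3.

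Changes were uneven in size. By limma at an adjusted p of 0.05, 2071 genes were higher at 16 days (10.4% of those tested) and 2843 were lower (14.3%), 24.7% in either direction. Among calls under 1 on the log2 scale, 1310 genes rose and 2650 fell, but among calls of at least 2-fold the order turned, with 761 rises (3.82%) and 193 falls (0.968%). At least 4-fold rises numbered 298 (1.49%), and of the 26 rises of at least 4 on the log2 scale, 9 were of at least 5. Only 1 fall reached 3 on the log2 scale. The number of falls was 1855 without replicate 2 of 8 days. At least 2-fold falls numbered 120 without replicate 2 of 8 days, 124 without replicate 2 of 16 days, 302 without replicate 3 of 16 days and 317 without replicate 1 of 8 days.

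**Figure D1:**
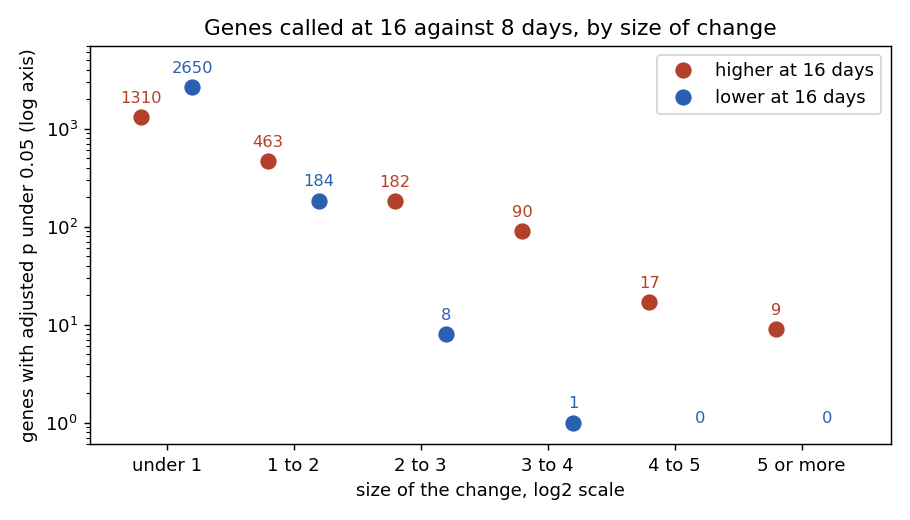
Number of genes past an adjusted p of 0.05 (log axis) in each band of change on the log2 scale, higher at 16 days in red and lower in blue. Falls outnumber rises below 1 (2650 against 1310), and above 2 rises outnumber falls (182 against 8 between 2 and 3).

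Promoter letters near the start of some of the steepest risers are shown first, as examples of the patterns whose shares are given further on. They were chosen because they hold a pattern, which most windows of the largest rises do not. The windows come from RefSeq (GRCm38.p6) and run from 5′ to 3′ on the strand of the gene. Capitals mark the AACTGNC pattern, a core of sites bound by MYB proteins such as the spermatocyte factor MYBL1, in the first 3, and GTTGCCA, 1 arm of the X-box that RFX factors of ciliated cells bind, in the last.
Gk2, chr5:97456994-97457143, minus strand, MYB pattern 7 bases after the start: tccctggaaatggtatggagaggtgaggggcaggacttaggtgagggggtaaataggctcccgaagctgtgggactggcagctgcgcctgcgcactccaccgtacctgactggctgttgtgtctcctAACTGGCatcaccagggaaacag
Ube2d2b, chr5:107830042-107830191, plus strand, MYB pattern 41 bases before the start: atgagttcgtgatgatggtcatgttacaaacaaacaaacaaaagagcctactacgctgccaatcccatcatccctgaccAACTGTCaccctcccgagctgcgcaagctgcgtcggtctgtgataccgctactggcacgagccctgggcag
Ldhc, chr7:46861033-46861182, plus strand, MYB pattern 214 bases before the start: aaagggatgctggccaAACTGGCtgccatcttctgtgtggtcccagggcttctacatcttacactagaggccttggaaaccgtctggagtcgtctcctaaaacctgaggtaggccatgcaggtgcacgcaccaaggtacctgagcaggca
Spata4, chr8:54600661-54600810, plus strand, X-box arm 6 bases before the start: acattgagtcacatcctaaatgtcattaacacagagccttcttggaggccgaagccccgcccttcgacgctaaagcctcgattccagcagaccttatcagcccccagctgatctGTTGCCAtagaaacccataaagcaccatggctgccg

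The 20 largest rises ran from 4.05 to 6.03 on the log2 scale, or from 16.6-fold to 65.5-fold, with limma adjusted p from 4.14e-09 to 7.65e-06. Besides enzymes and surface proteins of spermatocytes, they held genes of the sperm surface, of lipids and of the flagellum. Adam5 (gene ID 11499) encodes a disintegrin and metalloprotease of germ cells. It measured -4.94, -4.50 and -4.97 at 8 days and 0.00, 0.67 and -0.07 at 16 days in replicates 1, 2 and 3. That is a rise of 5.01 ± 0.19 (standard error), and the ages lay far apart.

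Cers3, the ceramide synthase that builds ceramides with very long chains, measured -4.19, -4.54 and -4.42 at 8 days and -0.03, 0.48 and 0.00 at 16 days. It rose by 4.53 ± 0.15 (adjusted p 5.86e-08), and its values at 24 days, 0.11, 0.35 and 0.24, lay within the range of 16 days. Plaat5, a phospholipid acyltransferase, rose by 4.41 ± 0.17, so that 2 genes of lipid synthesis stood among the 20. Ptchd3, a membrane protein of the patched type, rose by 4.55 ± 0.19.

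The flagellum was represented by Cfap206 and Spag6l of the axoneme and Fsip2 of the fibrous sheath. Cfap206 had means of -4.05 ± 0.10 and 0.18 ± 0.35 at 8 and 16 days (SD, n = 3) and rose by 4.23 ± 0.16. Fsip2 measured -3.68, -3.97 and -3.94 at 8 days and -0.17, 1.15 and 0.00 at 16 days. Replicate 2 of 16 days was its highest by far, and without it the rise of 4.19 ± 0.30 became 3.78. Spag6l rose by 4.08 ± 0.20, while its relative Spag6 did not pass the test (0.18 ± 0.12, adjusted p 0.355).

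Gml, a GPI-anchored protein of the Ly6 family, differed from most of the 20 in what followed. It measured -3.84, -3.80 and -4.21 at 8 days, 0.18, 0.44 and 0.13 at 16 days and -0.22, 0.00 and 0.06 at 24 days. Its rise was 4.20 ± 0.14 (adjusted p 5.60e-08) and its change over the next interval, which shares the arrays of 16 days, was -0.31. Lypd11, of the same family, rose by 4.23 ± 0.14. Tmbim7 and Mroh4 completed the 20 with rises of 4.10 ± 0.21 and 4.05 ± 0.14.

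**Figure D2:**
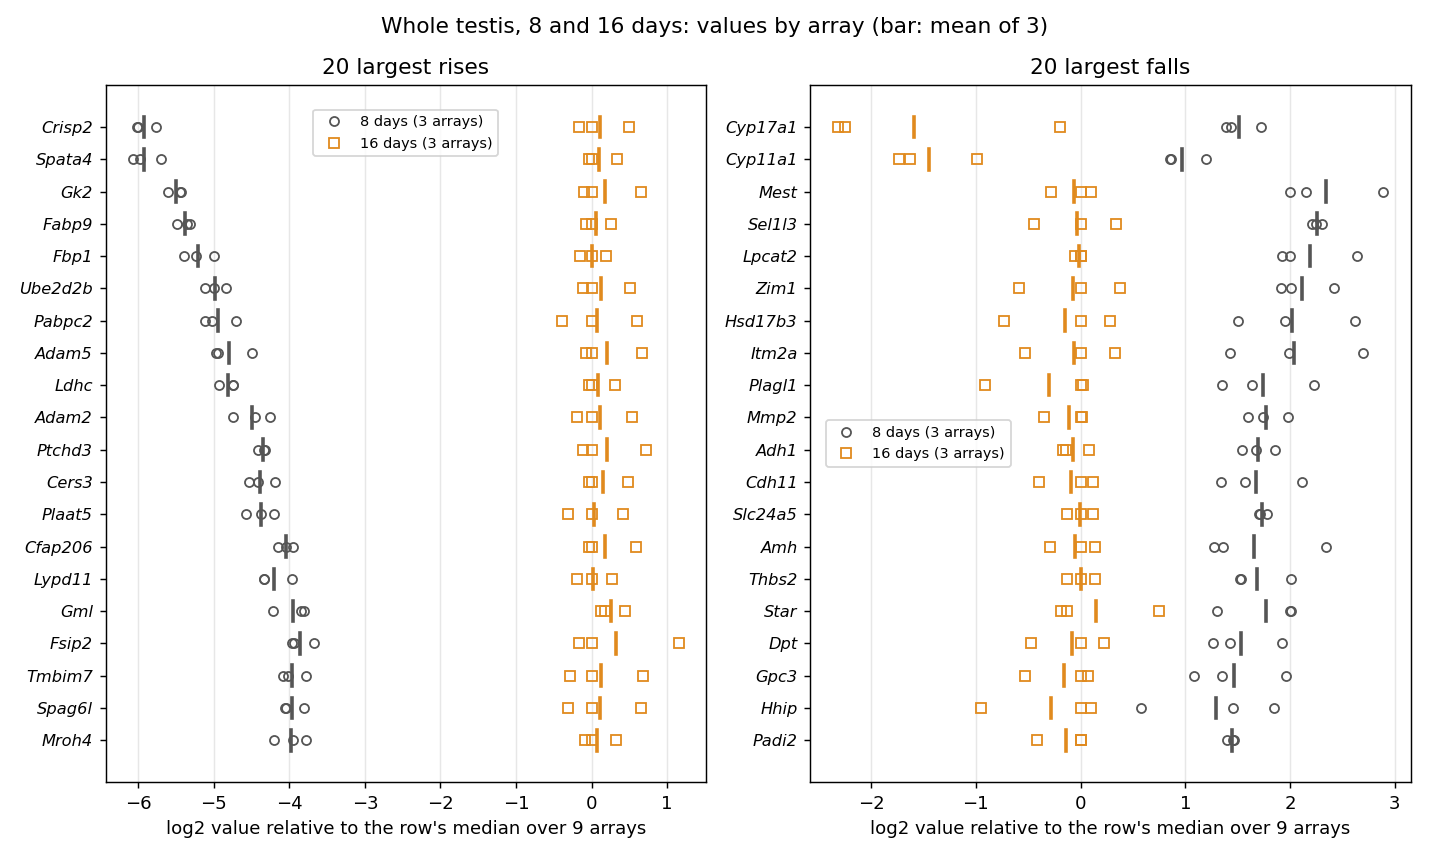
Values of the 20 largest rises and 20 largest falls in each array of 8 days (circles) and 16 days (squares), log2 relative to the row's median over 9 arrays, with bars at the mean of 3. Each gene's ages do not overlap, as the choice of genes required, and the rises (4.05 to 6.03) are wider than the falls (1.58 to 3.10).

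The 20 largest falls ran from -3.10 to -1.58, or from 8.60-fold to 2.99-fold lower, with limma adjusted p from 2.38e-06 to 0.00698. Besides steroid enzymes and imprinted genes, they held several genes of matrix and cell adhesion. Mmp2, a gelatinase that cuts basement membrane collagen, measured 1.74, 1.98 and 1.60 at 8 days and 0.00, -0.35 and 0.01 at 16 days and fell by 1.89 ± 0.14. Cdh11, a cadherin of mesenchymal cells, fell by 1.77 ± 0.21, the thrombospondin Thbs2 fell by 1.68 ± 0.15 and dermatopontin, Dpt, which binds collagen fibrils, fell by 1.62 ± 0.22.

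Adh1, an alcohol dehydrogenase that can oxidise retinol, measured 1.54, 1.86 and 1.68 at 8 days and -0.14, -0.17 and 0.08 at 16 days. It fell by 1.77 ± 0.11 (adjusted p 2.42e-06), and at 24 days it stood at -0.01, -0.09 and 0.00, level with 16 days. Slc24a5, a sodium, potassium and calcium exchanger known from pigment cells, fell by 1.73 ± 0.10, with arrays of 1.71, 1.78 and 1.70 at 8 days and -0.13, 0.00 and 0.12 at 16 days. Padi2, a peptidylarginine deiminase, fell by 1.58 ± 0.13.

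X-linked genes among the 20 were Itm2a, a membrane protein, and Gpc3, a glypican that holds growth factors. Itm2a measured 1.43, 2.70 and 1.99 at 8 days and 0.00, -0.53 and 0.33 at 16 days, a fall of 2.11 ± 0.31 with the widest scatter at 8 days. Gpc3 fell by 1.62 ± 0.22. Hhip, which binds hedgehog ligands, fell by 1.58 ± 0.33 and measured 0.58, 1.85 and 1.46 at 8 days, so that its replicates differed among themselves almost as much as its ages. Star, which brings cholesterol into mitochondria for steroid synthesis, fell by 1.62 ± 0.27.

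Of 26 genes of the retinoic acid signal and of meiotic initiation, 4 rose and 11 fell, with a median of -0.14 against -0.02 over all genes. These were 15.4% and 42.3%, against 10.4% and 14.3% of all genes. Those that rose included the partners Meioc and Ythdc2, which bind RNA and hold cells in the meiotic programme, and Aldh1a2, which makes retinoic acid in germ cells. Meioc measured -1.36, -1.44 and -1.02 at 8 days and -0.04, 0.11 and 0.13 at 16 days. It rose by 1.34 ± 0.14 (adjusted p 8.39e-05). Aldh1a2 rose by 1.02 ± 0.09 and Ythdc2 by 0.95 ± 0.14, while the retinoid receptor Rxra fell by 0.82 ± 0.17.

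Stra8, the target of retinoic acid needed for meiotic entry, measured 0.00, 0.44 and 0.39 at 8 days and 0.14, -0.25 and 0.46 at 16 days. The ages overlapped, and the change was -0.16 ± 0.19 (adjusted p 0.686). At 24 days its values were -0.73, -0.47 and -0.84, all below those of both younger ages.

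Break formation held genes that rose steeply beside genes that did not pass. Of its 14 genes 6 rose and 1 fell (42.9% and 7.14%, against 10.4% and 14.3% of all genes), with a median of 0.20. Spo11, the enzyme that cuts the DNA, rose by 2.90 ± 0.17, and Hormad1, an axis protein needed for normal numbers of cuts, by 2.08 ± 0.14. Gm960, the partner of SPO11 in the cutting complex, rose by 0.57 ± 0.12, and Mei4, of the set of proteins that brings the complex to the axis, fell by 0.47 ± 0.13 (adjusted p 0.026, up to 0.0848 with 1 array left out). Rec114 and Iho1, of the same set, did not pass. Rec114 measured 0.00, 0.60 and 0.54 at 8 days and 0.01, -0.38 and 0.02 at 16 days, a change of -0.50 ± 0.17 (adjusted p 0.0524), and Iho1 changed by 0.30 ± 0.17 (adjusted p 0.254). Prdm9, the methyltransferase that places the cuts, changed by 0.55 ± 0.17 (adjusted p 0.0431), with overlapping ages and an adjusted p of up to 0.135 when 1 array was left out.

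Repair and crossover genes had no falls among them. Of 21 genes of strand exchange 11 rose (median 0.47) and of 16 genes of crossover formation 8 rose (median 0.55). Cntd1, a cyclin-like protein that matures crossovers, rose most. It measured -3.46, -3.64 and -3.57 at 8 days and 0.00, 0.55 and -0.03 at 16 days, a rise of 3.73 ± 0.16 or 13.2-fold. The helicase Hfm1 rose by 2.18 ± 0.15 and the MutS proteins Msh4 and Msh5, which act as a pair, by 1.70 ± 0.10 and 0.93 ± 0.10.

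In strand exchange, Mcmdc2, a protein of the MCM helicase family that acts in meiotic repair, had tight replicates. Its values were -1.66, -1.68 and -1.57 at 8 days and 0.13, 0.10 and 0.15 at 16 days, and it rose by 1.76 ± 0.08 (adjusted p 3.91e-07). Psmc3ip, which helps DMC1 invade, rose by 1.78 ± 0.15, and the recombinase Dmc1 itself by 1.08 ± 0.17. Tex11, an X-linked crossover gene, changed by -0.65 ± 0.22 (adjusted p 0.0611). It was thus the member of the crossover list farthest below 0 among those that did not pass.

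Of 15 genes of the synaptonemal complex and meiotic cohesin, 11 rose (73.3%, against 10.4% of all genes) and 0 fell. The median was 1.10, and 8 genes rose at least 2-fold. Sycp2, an axis protein, rose by 2.22 ± 0.14, the transverse filament Sycp1 by 1.46 ± 0.15 and the axis protein Hormad2 by 1.43 ± 0.11. Sycp3 rose by 1.35 (limma adjusted p 0.00103). Trip13, the ATPase that strips HORMA proteins from synapsed axes, changed by -0.29 ± 0.15, and the cohesin Rad21l by 0.24 ± 0.22 (adjusted p 0.207 and 0.574).

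Chromosome ends attach to the nuclear envelope in early meiosis through the TERB1, TERB2 and MAJIN complex, and KASH5 links them to dynein outside. Of the 14 genes of this list, 5 rose and 1 fell (35.7% and 7.14%, against 10.4% and 14.3% of all genes), with a median of 0.19. Terb1 measured -2.09, -1.96 and -1.51 at 8 days and -0.02, 0.00 and 0.09 at 16 days and rose by 1.88 ± 0.13 (adjusted p 7.89e-06). Kash5 rose by 1.53 ± 0.16, Majin by 1.24 ± 0.11 and Terb2 by 0.76 ± 0.16, so that each of these 4 genes rose. The shelterin gene Pot1a changed by -0.51 ± 0.19 (adjusted p 0.0764).

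Of 24 genes of the meiotic checkpoint and the sex body, 5 rose and 4 fell, or 20.8% and 16.7% against 10.4% and 14.3% of all genes, with a median of -0.04. The number that fell was 1 without replicate 2 or 3 of 8 days or replicate 2 of 16 days, and 2 without replicate 1 of 16 days. Mdc1, which spreads the damage mark over the X and Y chromosomes, measured -1.61, -1.51 and -1.36 at 8 days and 0.01, -0.04 and 0.06 at 16 days. It rose by 1.51 ± 0.10, and Atr, the kinase that lays down the mark, rose by 1.49 ± 0.11. H2ax, the histone that carries it, rose by 0.77 ± 0.14. It is also counted among 18 histone variants, of which 4 rose and 2 fell (22.2% and 11.1%, against 10.4% and 14.3% of all genes). Macroh2a2 changed by -0.95 ± 0.27 (adjusted p 0.0286, up to 0.0963 with 1 array left out).

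Genes for the exit from prophase rose in a larger share than all genes. Of 32 genes of meiotic G2 to M control, 12 rose and 6 fell, with a median of 0.29. These were 37.5% and 18.8%, against 10.4% and 14.3% of all genes, so that the falls were near the share of all genes. The number that fell was 3 without replicate 2 of 16 days and 3 without replicate 2 or replicate 3 of 8 days. Fbxo43, an inhibitor of the anaphase-promoting complex, measured -2.49, -2.49 and -2.39 at 8 days and 0.00, 0.68 and -0.06 at 16 days and rose by 2.66 ± 0.21. Hspa2, the heat shock protein that CDK1 needs in spermatocytes, rose by 2.65 ± 0.10, and Meikin, which guards centromeric cohesion at the first division, by 2.15 ± 0.13.

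Replication genes changed by small amounts. Of 43, 3 rose and 8 fell (6.98% and 18.6%, near the 10.4% and 14.3% of all genes), with a median of -0.14, and none changed 2-fold. The rises numbered 1 without replicate 1 or 2 of 16 days or replicate 3 of 8 days. Without replicate 2 of 8 days, replicate 1 of 16 days or replicate 2 of 16 days 5 fell, and without replicate 1 of 8 days 14 fell. Mcm2 of the replicative helicase measured 0.59, 0.69 and 0.64 at 8 days and 0.02, -0.37 and 0.00 at 16 days and fell by 0.76 ± 0.12. Thymidylate synthase, Tyms, fell by 0.91 ± 0.21 and the licensing factor Cdt1 by 0.64 ± 0.13, while Gins1, another part of the helicase, rose by 0.73 ± 0.17.

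Germ cell regulators of RNA and chromatin rose in larger shares than all genes, and their shares of falls were near that of all genes. Of 30 germ cell RNA-binding proteins, 15 rose and 4 fell (median 0.26), and the number that fell was 1 without replicate 3 of 8 days and 2 without replicate 2 of 8 days, replicate 1 of 16 days or replicate 2 of 16 days. Pabpc6, a poly(A)-binding protein of germ cells, rose by 3.97 ± 0.17, the Y-box protein Ybx2, which stores messages for later use, by 3.06 ± 0.14 and the testis poly(A) polymerase Papolb by 2.45 ± 0.19. Of 24 Polycomb genes 6 rose and 3 fell (25% and 12.5%, against 10.4% and 14.3% of all genes), with a median of 0.06. Pcgf6, which marks germ cell genes in a variant complex, rose by 1.30 ± 0.13, whereas Pcgf2 and Cbx2 of the canonical complex fell by 0.62 ± 0.14 and 0.72 ± 0.15.

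The counts of these lists over the next interval, 24 against 16 days, are set beside those of the first, and both comparisons share the arrays of 16 days. Over all genes that interval gave 13.2% higher and 20.1% lower. The retinoic acid and initiation list gave 2 higher and 11 lower, break formation 0 and 6, and replication 1 and 17, so that falls outnumbered rises in each. The autosomal copies described further on gave 12 and 0, and the Adam and Tex families 21 and 4 and 22 and 3, against 7 and 4 and 6 and 1 over the first interval.

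**Figure D3:**
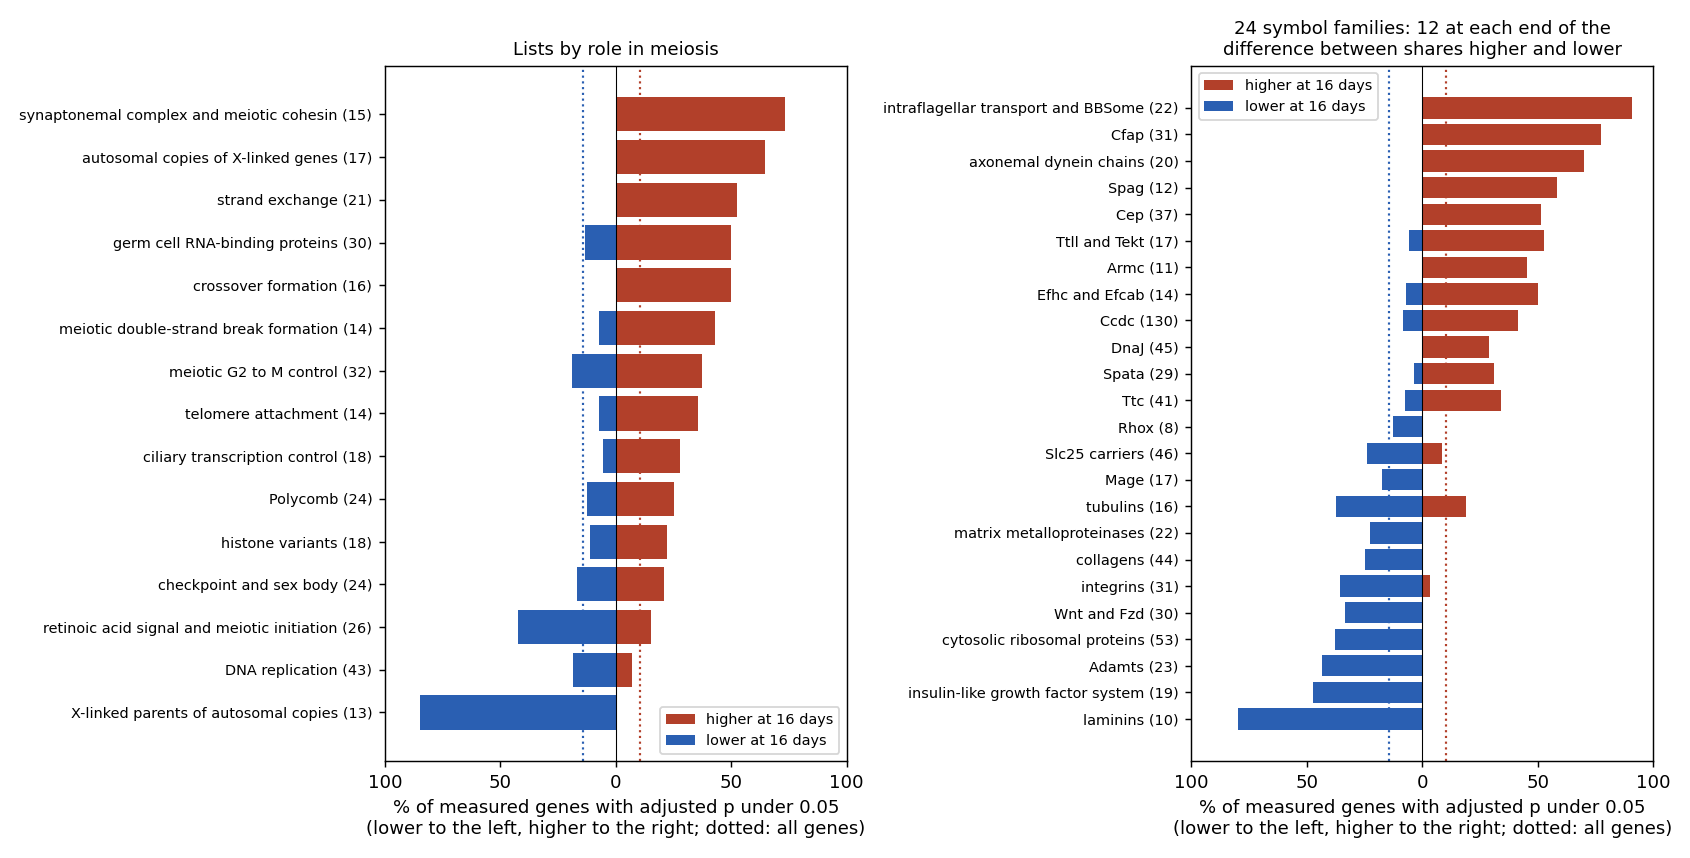
Share of measured genes called higher (red, to the right) or lower (blue, to the left) at 16 days, for the lists of meiotic roles and for 24 families of gene symbols (the 12 at each end of the difference between both shares), with the number of genes in brackets and dotted lines at the share of all genes. The intraflagellar transport and BBSome family (90.9% higher) and the X-linked parents of autosomal copies (84.6% lower) lie at opposite ends.

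Genes of cilia and flagella rose in large shares. Of 22 genes of intraflagellar transport and the BBSome, which carry cargo along a growing axoneme, 20 rose and 0 fell (90.9% against 10.4% of all genes), with a median of 0.89. Ift80 measured -1.94, -1.24 and -1.49 at 8 days and -0.07, 0.23 and 0.00 at 16 days. It rose by 1.61 ± 0.16, with Ift172 at 1.58 ± 0.14 and Ift122 at 1.39 ± 0.14. These rises were moderate in size, and 8 of the 20 reached 2-fold.

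Axonemal genes changed more. Of 31 Cfap genes 24 rose (77.4%) and 0 fell (median 1.46), and of 20 axonemal dynein chains 14 rose (70.0%) and 0 fell (median 1.73). Over all genes 10.4% rose and 14.3% fell. Dnah8, a heavy chain of the outer arm of sperm, measured -3.30, -3.36 and -3.22 at 8 days and -0.01, 0.55 and 0.00 at 16 days. It rose by 3.47 ± 0.15, or 11.1-fold. Dnah7a and Dnah7c, near-identical copies whose probes may share signal, rose by 3.29 ± 0.22 and 3.55 ± 0.19. Cfap69 rose by 3.19 ± 0.15 and Cfap65 by 2.95 ± 0.20.

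Coiled-coil and centrosome families followed. Of 130 Ccdc genes 54 rose and 11 fell, or 41.5% and 8.46% against 10.4% and 14.3% of all genes. Among those that rose were Ccdc38 at 3.83 ± 0.22 and Ccdc39, which sets the spacing of axonemal repeats, at 3.21 ± 0.24. Without replicate 2 of 16 days, or replicate 2 or 3 of 8 days, 6 Ccdc genes fell. Of 37 Cep genes 19 rose (51.4%) and 0 fell, with Cep126 at 2.20 ± 0.15 and Cep290, of the ciliary transition zone, at 1.49 ± 0.19. Of 17 tubulin ligase-like and tektin genes 9 rose and 1 fell (52.9% and 5.88%), led by the polyglutamylases Ttll13 (2.88 ± 0.13) and Ttll6 (2.33 ± 0.22). Tubulins themselves, 16 genes, gave 3 rises and 6 falls (18.8% and 37.5%), among them Tubb2b, which fell by 1.05 ± 0.24, and Tubb5, which fell by 0.83 ± 0.15.

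Some regulators of ciliary genes rose with them. Of 18 genes of ciliary transcription control 5 rose and 1 fell (27.8% and 5.56%, against 10.4% and 14.3% of all genes), and the median was 0.07. The other 12 did not pass, among them Foxj1 (-0.08), Mcidas (0.04), Gmnc (0.17) and Rfx3 (-0.04). Rfx4 measured -2.11, -2.08 and -2.08 at 8 days and 0.00, 0.30 and -0.15 at 16 days. It rose by 2.14 ± 0.12, and its relative Rfx2, needed to complete spermatids, by 1.90 ± 0.13. Mybl1, the MYB factor of pachytene, measured -2.68, -1.66 and -2.08 at 8 days and -0.07, 0.14 and 0.07 at 16 days, so that its rise of 2.18 ± 0.23 had more scatter at 8 days. Deup1, which builds centrioles in multiciliated cells, changed by 0.86 ± 0.25, with an adjusted p of up to 0.0992 with 1 array left out. It is counted among the 5 rises, so that not each of them is a regulator of transcription.

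Within several housekeeping families, single members known from germ cells rose far above a family median near 0. Of 35 Ube2 genes, 4 rose and 2 fell (11.4% and 5.71%, against 10.4% and 14.3% of all genes), and the family median was 0.00. Ube2d2b rose by 5.11 ± 0.16, Ube2u by 3.81 ± 0.15 and Ube2t, of DNA crosslink repair, by 1.04 ± 0.15. Among 50 genes matched as proteasome genes by symbol, Psma8, the spermatocyte form of a core subunit, rose by 2.57 ± 0.17 against a median of -0.04. That match also took in Psmc3ip, which is no proteasome subunit. Of 89 genes of the respiratory chain 8 rose and 10 fell (8.99% and 11.2%, at or under the shares of all genes), and the testis forms Cox8c, Cox6b2 and Cox7b2 rose by 3.23 ± 0.25, 2.31 ± 0.18 and 2.11 ± 0.23. The number that fell there was 4 without replicate 1 or 2 of 16 days or replicate 2 of 8 days, and 6 without replicate 3 of 8 days.

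Of 318 solute carriers outside the mitochondrial family 20 rose and 51 fell, or 6.29% and 16.0% against 10.4% and 14.3% of all genes. Among those that rose were the glucose carrier Slc2a3 at 3.57 ± 0.13, the sperm sodium and proton exchanger Slc9c1 at 3.10 ± 0.21 and the fructose carrier Slc2a5 at 2.96 ± 0.21. Of 34 Adam genes 7 rose, each at least 2-fold, and 4 fell (20.6% and 11.8%, against 10.4% and 14.3% of all genes). The symbol match for cytosolic ribosomal proteins left out the autosomal copies Rpl10l and Rpl39l, which rose by 1.32 and 1.17. The 53 genes it held moved by small amounts in 1 direction (median -0.29). Of these 0 rose and 20 fell (37.7%, against 14.3% of all genes). That count was 8 without replicate 2 of 8 days, 9 without replicate 3 of 8 days, 10 without replicate 2 of 16 days and 13 without replicate 1 of 16 days, and 11 with each array centred on its median.

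Autosomal copies of X-linked genes, many of them retrogenes used in spermatocytes while the X chromosome is silent, and their parents parted in direction. Of 17 copies 11 rose (64.7%, against 10.4% of all genes) and 0 fell, with a median of 1.17. Of 13 X-linked parents 0 rose and 11 fell (84.6%, against 14.3% of all genes), with a median of -0.68. The pyruvate dehydrogenase copy Pdha2 measured -2.13, -2.07 and -2.02 at 8 days and 0.00, 0.34 and 0.00 at 16 days. Its parent Pdha1 measured 0.32, 0.84 and 0.62 at 8 days and 0.00, -0.27 and 0.00 at 16 days. Pdha2 thus rose by 2.19 ± 0.11 and Pdha1 fell by 0.68 ± 0.14.

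Other pairs gave the same 2 directions at other sizes. The helicase copy D1Pas1 rose by 1.72 ± 0.13 and its parent Ddx3x changed by -0.83 ± 0.21 (adjusted p 0.0153, up to 0.0603 with 1 array left out). The ribosomal copy Rpl10l rose by 1.32 ± 0.16 and Rpl10 fell by 0.60 ± 0.12. The centrin copy Cetn1 rose by 1.86 ± 0.23, and Cetn2, at 0.07, 1.23 and 0.92 at 8 days and 0.00, -0.67 and 0.27 at 16 days, overlapped between ages and did not pass (-0.87 ± 0.29, adjusted p 0.0562).

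Not each copy had risen. Rbmxl2, a copy of the splicing factor Rbmx, changed by 0.18 ± 0.10 (adjusted p 0.248), while Rbmx fell by 0.82 ± 0.20. Cstf2t, the germ cell copy of a polyadenylation factor, changed by 0.22 ± 0.08 (adjusted p 0.0792) and its parent Cstf2 fell by 0.39 ± 0.09. G6pd2, a copy of glucose 6-phosphate dehydrogenase, measured -0.26, -0.38 and -0.32 at 16 days and 1.16, 0.95 and 0.79 at 24 days, so that its values were high only in the oldest arrays. Its change over the first interval was -0.33 ± 0.11 (adjusted p 0.0562).

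The X chromosome as a whole stood apart from the autosomes. Of its 739 measured genes 21 were higher (2.84%) and 214 lower (29.0%), against 10.7% and 13.7% of 19100 autosomal genes. The median X-linked value was 0.19, 0.22 and 0.13 in the arrays of 8 days and 0.00, -0.01 and 0.00 in those of 16 days. The autosomal median was 0.12, 0.00 and 0.00 at 8 days and 0.00, 0.03 and 0.00 at 16 days. Replicate 1 of 8 days was thus raised on the autosomes too. Single autosomes ranged from 8.50% to 13.1% higher and from 12.1% to 17.4% lower. The number of X-linked falls was 128 without replicate 2 of 8 days, 133 without replicate 2 of 16 days and 205 without both arrays whose olfactory receptor genes were raised. With each array centred on its median it was 155. With a replicate block on the 6 numbered arrays, 72 X-linked genes fell and 7 rose. The median change on X was -0.18, so that most of these falls were under 2-fold, and 15 reached it.

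**Figure D4:**
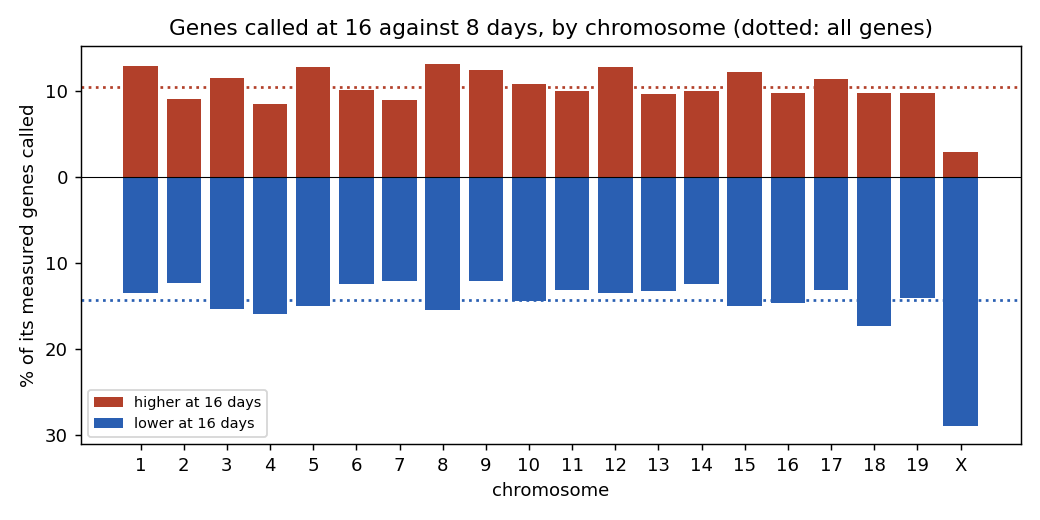
Share of each chromosome's measured genes called higher (red, upward) or lower (blue, downward) at 16 days, with dotted lines at the shares of all genes (10.4% and 14.3%). The X chromosome has 2.84% higher and 29.0% lower.

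Of the 21 X-linked rises, 3 were at least 2-fold, named here after their values were seen. Nxf3, a germ cell member of the mRNA export family, measured -1.80, -2.17 and -1.53 at 8 days, 0.45, 0.44 and 0.57 at 16 days and -0.24, 0.22 and 0.00 at 24 days. It rose by 2.32 ± 0.16 (adjusted p 7.32e-06) and was highest at 16 days. Ccnb3, the cyclin B of early meiotic prophase, measured -0.63, -0.22 and -0.24 at 8 days and 0.74, 0.51 and 1.14 at 16 days, and -0.01, 0.27 and 0.00 at 24 days. Its rise was 1.16 ± 0.17, and it too was highest at 16 days. Tsx, a testis gene of the X-inactivation centre, rose by 1.85 ± 0.22 and was highest at 24 days, at 0.78, 1.22 and 0.39.

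On the Y chromosome 9 genes were measured, of which 2 rose and 1 fell (22.2% and 11.1%, against 10.4% and 14.3% of all genes). The zinc finger genes Zfy1 and Zfy2, which act at meiotic checkpoints and whose sequences are near-identical, rose by 0.92 ± 0.13 and 0.94 ± 0.19. Kdm5d, a histone demethylase expressed in many tissues, fell by 0.68 ± 0.15. These 3 were also named after their values were seen.

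Families of matrix, adhesion and growth signals held more falls than rises. Against the 14.3% of all genes that fell, 80.0% of the laminins, 43.5% of the Adamts proteases and 25% of the collagens did. Of 10 laminins 8 fell and 0 rose (median -0.57), with Lama4 at -0.84 ± 0.09 and Lamc1 at -0.70 ± 0.14. Of 23 Adamts proteases 10 fell and 0 rose, led by Adamts5 (-1.23 ± 0.24) and Adamts1 (-0.94 ± 0.11). Of 44 collagens 11 fell and 0 rose, with Col1a1 at -0.85 ± 0.09 and Col6a1 at -0.77 ± 0.08. Of 31 genes matched as integrins, 11 fell (35.5%). Itga4 changed by -1.49 ± 0.24 and Itga6, an integrin of spermatogonia among other cells, by -1.14 ± 0.19. The 1 rise among the 31, Itgb3bp, is a centromere protein and no integrin.

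Of 19 genes of the insulin-like growth factor system 9 fell (47.4%, against 14.3% of all genes) and 0 rose (median -0.39). Igf2, the fetal growth factor, fell by 1.31 ± 0.16, the binding protein Igfbp4 by 0.98 ± 0.14 and Igfbp5 by 0.82 ± 0.09. That count was 5 without replicate 2 or replicate 3 of 8 days, and 5 with each array centred on its median. Of 30 Wnt and Fzd genes 10 fell (33.3%) and 0 rose, and 6 fell without replicate 2 of 8 days. Among the falls were Wnt5a at -1.35 ± 0.20, Wnt6 at -0.84 ± 0.09 and the receptor Fzd2 at -0.91 ± 0.13.

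Of 12 endothelial markers 8 fell (66.7%, against 14.3% of all genes) and 0 rose, with 5 falls without replicate 1 of 16 days. Of 10 peritubular myoid markers 7 fell (70.0%) and 0 rose, with 4 falls without replicate 2 of 8 days or of 16 days. The mean values of these lists lay, in that order, between 0.38 and 0.55 and between 0.26 and 0.37 at 8 days. At 16 days they lay between -0.04 and 0.01 and between -0.10 and 0.02, and the ages did not overlap. The part of these cell types in the falls of matrix genes was not tested. Of 14 macrophage markers 2 fell, near the 14.3% of all genes that fell.

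Genes that still carry a laboratory name, with symbols ending in Rik or starting with Gm, differed in their share of rises. Of 741 Rik genes 119 rose and 39 fell, or 16.1% and 5.26% against 10.4% and 14.3% of all genes. Of 486 Gm genes 40 rose and 7 fell, and their 8.23% of rises and 1.44% of falls were below those of all genes. The Rik falls numbered 17 without replicate 2 of 8 days, 20 without replicate 1 and 21 without replicate 2 of 16 days, and 24 without replicate 3 of 8 days. The Gm falls numbered 12 without replicate 3 of 16 days, 13 without replicate 1 of 8 days and 4 without replicate 1 of 16 days. 1700006A11Rik (gene ID 71824) measured -5.48, -5.61 and -5.34 at 8 days and -0.07, 0.78 and 0.00 at 16 days. Its rise of 5.71 ± 0.20, or 52.4-fold, would place it beside Gk2. The Gm gene with the largest rise was Gm10619, at 4.37 ± 0.25, and the Rik gene with the largest fall B130016D09Rik, at -1.20 ± 0.11.

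Of 675 genes annotated as long non-coding RNA, 66 rose and 19 fell, or 9.78% and 2.81%. Their share of rises was close to the 10.4% of all genes, and their share of falls was below the 14.3%. Neither difference was tested.

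Few microRNA genes passed the test. The array measures the transcript from which a microRNA is cut, not the mature form. Of 300 such genes 2 rose and 8 fell, or 0.667% and 2.67% against 10.4% and 14.3% of all genes. Mature sequences from RefSeq were at hand for 9 of the 10 called. Those of the gene that fell most, of the pair of called genes with a shared mature form and of the rise with a mature form are given with their seeds, bases 2 to 8, in capitals, because the seed sets which messages a microRNA can bind.
miR-202-5p, chr7:139957732-139957752, minus strand: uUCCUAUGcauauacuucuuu
miR-202-3p, chr7:139957695-139957716, minus strand: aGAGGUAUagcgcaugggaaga
miR-181b-5p of Mir181b-1, chr1:137966650-137966673, plus strand: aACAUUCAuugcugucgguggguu
miR-449c-5p, chr13:113036008-113036028, plus strand: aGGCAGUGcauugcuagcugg

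Mir202, known from the gonads, measured 1.05, 1.47 and 1.83 at 8 days and 0.00, -0.29 and 0.00 at 16 days. The ages did not overlap and it fell by 1.55 ± 0.17 (adjusted p 0.000176). Mir181b-1 and Mir181b-2, which lie on different chromosomes and give the same 5p sequence, fell by 0.92 and 0.56. Mir449c, of a family found in ciliated cells and spermatocytes, measured 0.01, -0.36 and -0.25 at 8 days and 0.35, 0.43 and 0.32 at 16 days and rose by 0.57 ± 0.10. The other rise was that of Mir17hg, a host transcript for several microRNAs, by 0.77 ± 0.14. The change of Mir99a, -0.69 ± 0.20, had an adjusted p of up to 0.0922 with 1 array left out.

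Some risers lay next to each other. In the order of genes along the chromosomes, 104 of 760 genes that rose at least 2-fold (13.7%) had a neighbour that did so too, against 7.19% of the other genes. Runs of at least 3 such neighbours numbered 5 and held 16 genes. The longest was a cluster of Adam genes on chromosome 8, with Adam18 at 2.28 ± 0.25, Adam3 at 3.97 ± 0.32, Adam5 at 5.01 ± 0.19 and Adam32 at 3.80 ± 0.23.

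Of the other runs, 2 were families of related genes on chromosome 7, Abca14, Abca15 and Abca16 of the lipid transporters (2.09 ± 0.30, 1.85 ± 0.33 and 2.45 ± 0.23), and Tex101, Lypd10 and Lypd11 of the Ly6 family (1.75 ± 0.11, 2.37 ± 0.14 and 4.23 ± 0.14). Probes of such related genes may share signal. On chromosome 11 the run joined unrelated genes, the acyl-CoA synthetase Acsl6 (1.14 ± 0.15), Meikin and the folliculin partner Fnip1 (1.11 ± 0.11). Among genes that fell, 36.2% had a neighbour that fell, against 24.5% of the other genes. Neighbours are not independent of each other, and these shares are given without a test.

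Promoter windows of 300 bases, 250 before and 50 after the start, were at hand for 15561 of the genes. The pattern AACTGNC, on either strand, was present in 12% of them and in 12.9% of all windows of the RefSeq table. Its share went up with the size of the rise, from 12.4% among rises under 2-fold to 17.4% between 2-fold and 4-fold, 23.2% of 237 genes from 4-fold and 29.4% of 85 genes from 8-fold. Among genes that fell it was 8.98% and among genes not called 12.1%. Of the 20 largest rises 13 had a window, and 4 of those held the pattern: Gk2, Ube2d2b and Ldhc, shown above, and Fbp1, in which it starts 27 bases after the start.

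The X-box arm GTTGCCA, also on either strand, followed the same order. It was present in 4.07% of all windows (4.46% of the whole table), in 8.71% of rises between 2-fold and 4-fold, in 12.2% from 4-fold and in 12.9% from 8-fold, and in 2.67% of falls. Spata4 was the one gene of the 13 that held it. The MYB and X-box patterns can share letters on opposite strands, as in Zmynd10, where they start 42 and 38 bases after the start, so that some windows count for both.

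The other patterns searched, each on both strands, were less even. Among the 85 rises from 8-fold, TATAAA (8 genes) and GGGCGG lay below their share of all windows and CCAAT above it. TGACGTCA, CNCCTCAG, TTCCCGC and GCGCATGCG lay close to theirs, with 2, 7, 5 and 2 genes, and CAAGGTCA had 0. Among all rises, several patterns lay above their share of all windows: TTCCCGC at 9.94%, CNCCTCAG at 10.5%, GCGCATGCG at 4.41%, GGGCGG at 58.8% and TGACGTCA at 3.06%. Among falls, GGGCGG at 69.1%, TTCCCGC at 7.16% and GCGCATGCG at 2.67% also lay above it, while CNCCTCAG at 7.84% and TGACGTCA at 2.04% lay below. These patterns were not split by GC content. The shares of all windows and of rises from 8-fold follow in that order. The cAMP response element TGACGTCA was present in 2.50% of all windows and 2.35% of rises from 8-fold, and the pattern CNCCTCAG, linked to STRA8, in 8.73% and 8.24%. The E2F pattern TTCCCGC gave 6.48% and 5.88% and the NRF1 pattern GCGCATGCG 2.63% and 2.35%. The SF-1 pattern CAAGGTCA gave 1.17% and 0%. CCAAT gave 38.3% and 45.9%, TATAAA 12.1% and 9.41% and GGGCGG, the GC box, 49.9% and 36.5%.

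Base composition differed between these groups as well. The median GC content was 57.7% over all windows, 54.7% from 8-fold and 62.3% among falls. Within windows under 50% GC, the MYB pattern was present in 14.8% of all genes and 34.5% of 55 genes from 4-fold, between 50% and 60% in 14.4% and 26.4% of 110, and from 60% in 8.29% and 9.72% of 72. The difference was thus small in windows rich in GC. For the X-box arm the shares were 3.77% and 10.9%, 5.12% and 13.6%, and 3.45% and 11.1% in the same bands, so that its difference was present in each. These are matches of letters, with no binding measured.

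**Figure D5:**
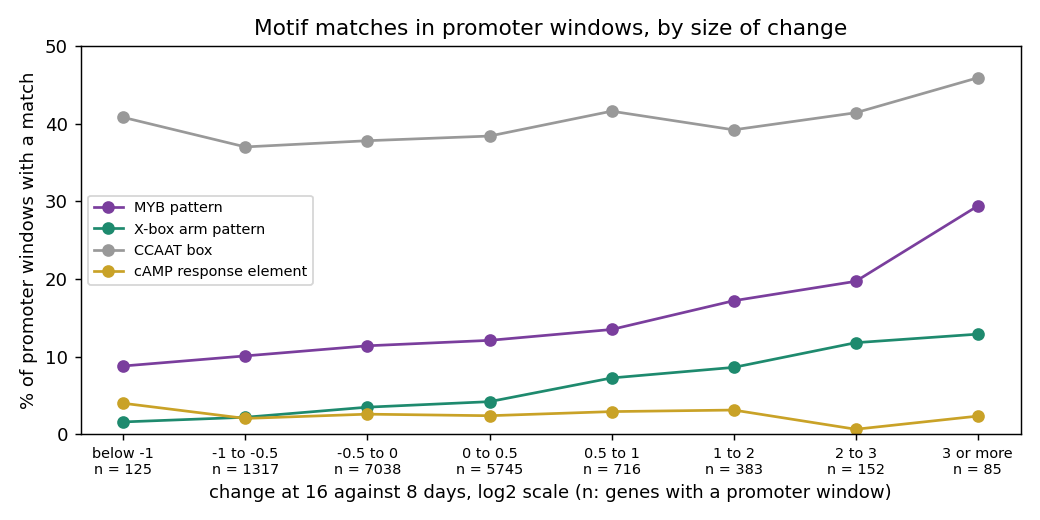
Share of promoter windows with a match to 4 patterns (vertical axis, %) by the change of the gene at 16 against 8 days (horizontal axis, log2 bands with the number of genes). The MYB pattern reaches 29.4% and the X-box arm 12.9% in the band of 3 or more, and the cAMP response element 2.35%.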

How the data were processed

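The authors deposited 1 table of 28815 array rows by 9 arrays, whose values, from -6.07 to 6.05, were read as log2 differences from the row's own median. Per the labels' protocols, total RNA was extracted with a miRNeasy kit and labelled with biotin for whole-transcript Affymetrix arrays. Background correction, normalization and summary of probes are not given in the sources used here. Blank cells (38964) were taken as 0, since each row's median is then 0. Rows with exactly 1 gene symbol (21780) were averaged per gene, which gave 19935 genes, 998 of them from more than 1 row. Because the values are centred, no filter on dim genes was possible, and precision is limited by how many arrays there are.

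The linear model of limma 3.58.1 (R 4.3.3) held 1 mean for each age over the 9 arrays, with moderated variances (lmFit, then eBayes; residual degrees of freedom 6, prior 3.82). The contrast was 16 minus 8 days, 2-sided with Benjamini-Hochberg adjustment over all genes. A change is given with its standard error and a mean with its SD. Gene symbols come from the platform annotation and chromosomes from RefSeq (GRCm38.p6; 19853 genes matched). The genes, lists and families were chosen with earlier results of these data known. Named genes are the 20 largest rises and falls with no overlap between the ages, less multicopy families and genes with laboratory names, up to 4 called and 2 uncalled members of each list, the pairs of autosomal copies and X-linked parents, and Stra8, Spo11, Dmc1, Sycp3, Prdm9, Mybl1 and Rfx2. Families were matched by symbol. The script was tested on simulated data. Python 3.11.15 served for joins (pandas 2.3.3) and figures (matplotlib 3.10.9).

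The model held no block for replicate number, as the labels tie no number to a shared animal, litter or day. The correlations of deviations between arrays of 8 and 16 days with the same number were -0.14, -0.46 and 0.45. The alternatives were centred arrays, only the 6 arrays compared, the row with the largest spread, blanks left missing, only rows with 1 blank, array weights, robust eBayes, replicate blocks, an olfactory receptor covariate, omitting both arrays with raised olfactory medians, limma treat against 1.5-fold, and each array left out in turn. A match in any promoter window of a gene and bands of GC content were added after seeing the data.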

Additional observations from a re-analysis of the deposited data

Results flagged for a closer look

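Rows outside the gene comparison also changed between 8 and 16 days. Of 1605 rows that carry several gene symbols, 92 were higher and 158 lower by limma at an adjusted p of 0.05, or 5.73% and 9.84%, with changes of up to 4.69 and down to -1.70. Of 5430 rows with no gene symbol, 151 were higher and 287 lower, or 2.78% and 5.29%, and the largest changes were 5.39 and -2.64. These rows cannot be assigned to 1 gene and entered no count of genes.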

How the results depend on the processing

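Results were recomputed under 22 alternatives, 9 of which left out 1 array each. The 4 main counts moved by over 1.5 times only with limma treat, with the block on the 6 numbered arrays and with certain single arrays left out. With limma treat against 1.5-fold, 627 genes were higher and 69 lower. With a replicate block on the 6 numbered arrays, 1162 were higher, 809 lower and 318 at least 2-fold lower. Outside the 4 main counts, 7 X-linked genes rose and 72 fell under that block, and 2 X-linked parents of autosomal copies fell. With the unnumbered arrays as a block of their own, 1972 were higher and 2529 lower, within 1.5 times of the main counts. With 1 array left out, 1855 to 3099 genes were lower and 120 to 317 at least 2-fold lower, while 1715 to 2036 were higher. Centring each array gave 2076 higher and 2173 lower, also within 1.5 times. In smaller groups, centring left 5 respiratory chain falls, 23 Rik falls and 6 Ccdc falls, and the olfactory receptor covariate gave 20 microRNA gene falls, 17 collagen falls and 15 replication falls. Of 431 named genes, 0 reversed, 211 kept their side of the threshold in each alternative and 220 lost or gained a call in at least 1. Of 112 counts of lists and families, 104 moved by over 1.5 times in at least 1 alternative. With a match counted in any promoter window, the MYB pattern was present in 13.8% of all genes and 25.3% of those from 4-fold. Values relative to a median give no signal over background, so that genes near background cannot be told from genes with small changes.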
